A study of Bos taurus with 12 samples.

Results

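Transcripts of 10 enzymes of tryptophan, proline, arginine and polyamine metabolism were followed in endometrium of Simmental heifers. They are ACMSD, IDO1 and KYNU of tryptophan breakdown, PRODH of proline breakdown, ASS1 and ASL of arginine synthesis, and ODC1, AMD1, SMS and SAT1 of polyamine metabolism. All probe sets of the Affymetrix Bovine Genome Array with one of these symbols in the platform annotation were taken, which gave 15 of 24016 probe sets and found all 10 genes. The genes were picked from results of these arrays, that is from log2 signals of the same pools, and which comparison guided the choice is not recorded. Their levels and differences are therefore given as a description, a call for one of them only says where it stands in the fit over all probe sets, and nothing is read from how many of them were called.

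Endometrium was brushed from the uterine wall of cyclic, estrus-synchronized heifers on days 3 and 7 of the cycle, before any embryo was transferred. The paper calls the study longitudinal but does not state whether the same heifers gave both the day 3 and the day 7 pools. Heifers with a detectable embryo after transfer in the following cycle formed the high receptivity groups (HR3 and HR7, labelled receptive), and those without one formed the low receptivity groups (LR3 and LR7, labelled non receptive). Each group has 3 arrays, and each array holds a pool of RNA from several heifers, so the spread over pools understates the spread over animals. All donors were Simmental heifers, no group carried a treatment or allele of its own, and receptivity was known only afterwards. Ages are not given in the sources used here.

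Tryptophan is opened by IDO1 and then passed down the kynurenine pathway, where ACMSD draws an intermediate away from the branch that ends in NAD. Arginine and proline meet in ornithine, which ODC1 turns into putrescine, the parent of the polyamines spermidine and spermine. In ruminants, polyamines and arginine are known as nutrients that the uterus supplies to the growing conceptus, and IDO1 is known for its part in immune tolerance at the surface between mother and embryo. Day 3 lies shortly after ovulation and day 7 in the early luteal phase, when progesterone is rising.

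Signals are log2 PLIER values, for which a difference of 1 is a doubling. The array medians lay between 6.64 and 6.77, and the level of a gene is given against the median of its own array. On each array 281 to 395 probe sets had the lowest possible signal, 0. A probe set was tested when its SD over the 12 arrays was at least 0.2 and when all arrays of some group exceeded their medians. This held for 7336 probe sets and for 8 of the 15 considered here, 1 each of ACMSD, PRODH, ASL, ASS1, ODC1, SAT1, AMD1 and SMS. ACMSD met the rule only through HR7 and PRODH only through the day 7 groups, so that a difference between days was built into their passing. Among markers of simple epithelium, 7 of 8 exceeded the median on all arrays in every group. Of 10 stroma markers 7 to 9 did so, depending on the group, and of 5 smooth muscle markers none did.

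From day 3 to day 7, 6 of the 10 genes were higher on every day 7 array than on any day 3 array, in both receptivity groups. These were PRODH, ACMSD, ODC1, SAT1, ASL and SMS, by 4.50, 4.34, 1.94, 0.84, 0.77 and 0.72 on the log2 scale. All 6 passed in limma over both receptivity groups, where 31.1% of the tested probe sets passed as higher at day 7. For PRODH and ACMSD, which were tested only through day 7 groups, the call was partly built in by the filter. The same 6 passed within HR (20.7% of tested probe sets) and within LR (22.7%). Over all 24016 probe sets, 7.24% had day 7 arrays wholly above the day 3 arrays, with 16.1% within HR and 14.6% within LR. Among the 7336 tested probe sets, to which those of the 6 genes belong, the shares were 17.7%, 29.0% within HR and 25.4% within LR. ASS1 and AMD1 did not pass, and IDO1 and KYNU were not tested. In pooled tissue, more RNA per cell and more cells that carry a transcript cannot be told apart.

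**Figure D1:**
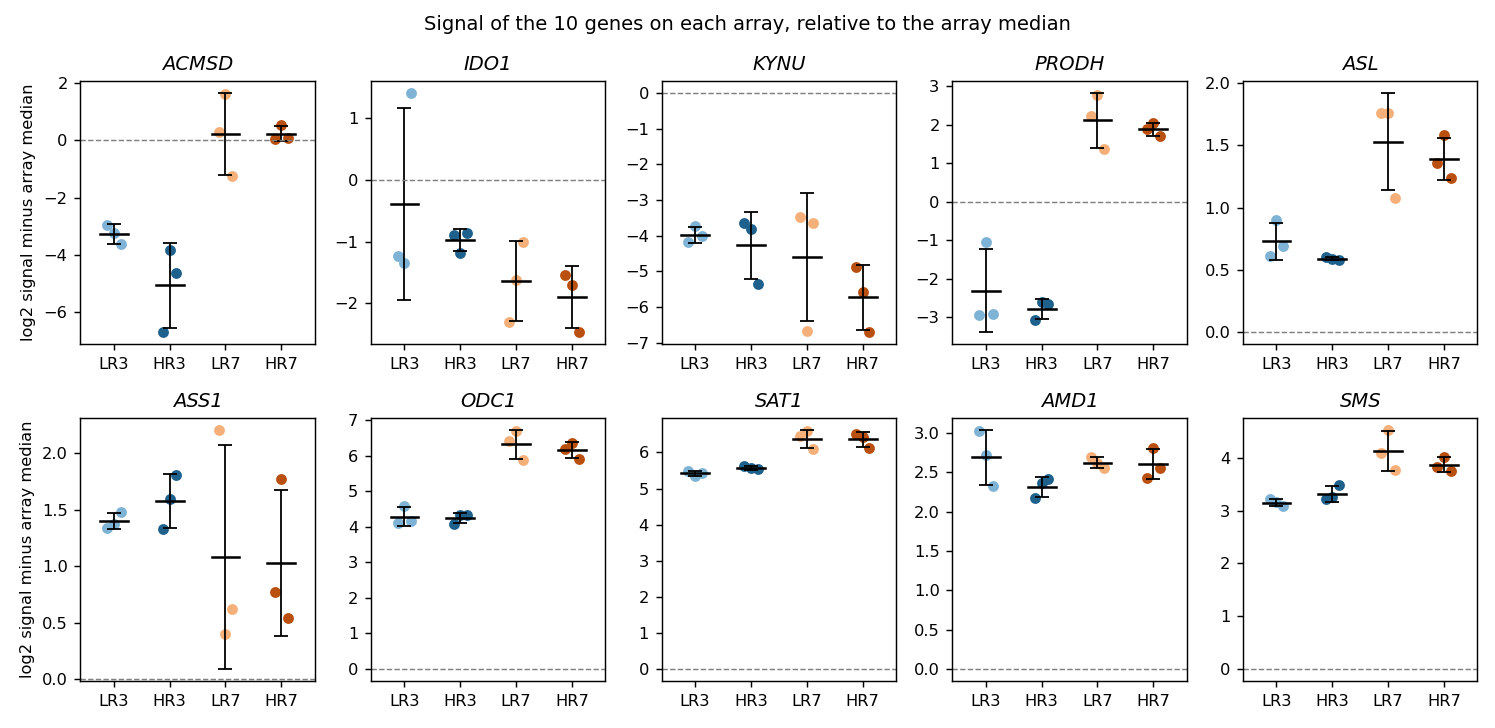
Log2 signal minus the array median (vertical axis) in the 4 groups LR3, HR3, LR7 and HR7, for the probe set of highest mean of each gene. Points are arrays of 1 pool each, black bars the mean and SD of 3 pools, and the dashed line the array median. PRODH and ACMSD lay below the median at day 3 and around or above it at day 7, whereas ODC1 and SAT1 were far above it on all arrays.

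Over both receptivity groups PRODH had the largest difference of the 10 genes. PRODH, the mitochondrial dehydrogenase that begins proline breakdown, had log2 signals of 3.61, 4.16 and 4.12 in HR3 and of 3.70, 5.68 and 3.80 in LR3. At day 7 it had 8.61, 8.70 and 8.41 in HR7 and 8.87, 9.43 and 8.07 in LR7. The highest day 3 pool, LR3 replicate 2, stood 1.06 below its array median, and the lowest day 7 pool, LR7 replicate 3, stood 1.36 above. The difference was 4.61 in HR (standard error 0.46) and 4.40 in LR (standard error 0.46). Only 5 of the 7336 tested probe sets, which PRODH joined through the day 7 groups alone, had a larger rise over both receptivity groups. Since the day 3 signals were low, the size depends on how low signals are treated, and with 16 added to the linear signal it was 3.61 over both groups.

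A list of other genes of proline metabolism, drawn up with results of these arrays known and so not independent of them, was set beside PRODH. Of 11 listed genes 10 have a probe set and 7 were tested, of which 6 rose and 1 fell over both receptivity groups (median 0.68, against -0.08 for all tested probe sets, of which 31.1% rose and 34.8% fell). Within HR 6 rose and none fell, where 20.7% of all tested probe sets rose, and within LR 5 rose and none fell, where 22.7% did. The largest rises were those of PEPD, which frees proline from dipeptides (1.19, standard error 0.15, adjusted p = 7.35e-05 from limma), ALDH18A1, which begins proline synthesis from glutamate (1.09, standard error 0.20, adjusted p = 0.00071), and ALDH4A1, which completes proline breakdown after PRODH (0.86, standard error 0.19, adjusted p = 0.00197). Enzymes of both synthesis and breakdown were thus among those that rose. OAT, which links ornithine to proline, and the collagen prolyl hydroxylase subunits P4HA1 and P4HB rose as well, by 0.65, 0.65 and 0.68. P4HA2, another such subunit, fell by 0.44 (adjusted p = 0.0235), a call that was lost without the filter on low values (0.064) and without HR3 replicate 3 (0.0555). PYCR1, which makes proline in its last step, was too low to be tested and had a log2 signal of 5.47 ± 0.27 (SD, n = 3) in HR3, 5.91 ± 0.31 in LR3, 6.82 ± 0.17 in HR7 and 6.77 ± 0.29 in LR7. The brighter PYCR3, of the same step, was not tested either, had group means between 9.36 and 9.43 and differed by -0.03 between days. PRODH2, also not tested, differed by -0.15 in its brighter probe set and by 2.5 in a dimmer one.

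Within tryptophan breakdown, ACMSD was higher at day 7, whereas IDO1 and KYNU were not. ACMSD, the decarboxylase at the branch of the kynurenine pathway, had 0, 2.94 and 2.14 in HR3 and 3.70, 3.52 and 3.10 in LR3. At day 7 it had 6.78, 7.19 and 6.80 in HR7 and 6.94, 8.27 and 5.46 in LR7. All day 3 pools were thus at least 2.94 below the array median, 1 of them at the floor, and 5 of 6 day 7 pools were above it. The difference was 5.23 in HR (standard error 0.71) and 3.45 in LR (standard error 0.71). Over both groups 9 tested probe sets had a larger rise, but ACMSD was itself tested only through HR7. With 16 added to the linear signal the rise was 2.57 over both groups, 2.77 in HR and 2.37 in LR, so its size is imprecise.

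IDO1, the dioxygenase that opens the pathway and that interferon induces, was below the array median on all arrays but LR3 replicate 3. Its brighter probe set had 5.79, 5.57 and 5.91 in HR3, against 5.18, 4.96 and 4.24 in HR7. It had 5.41, 5.40 and 8.13 in LR3, against 4.34, 5.04 and 5.71 in LR7. Both of its probe sets were lower on all HR7 arrays than on any HR3 array, by 0.96 and 0.32, which 18.6% of all probe sets were. In LR the arrays overlapped between days. LR3 replicate 3 was the highest pool in the second probe set as well, with 6.19 against 4.47 and 4.77. The brighter probe set differed between days in LR by -1.28, or by -0.38 without LR3 replicate 3. Marker signals were summed on the linear scale and given as log2, so that the brightest markers weigh most. On that array the sum of 4 neutrophil markers exceeded that of the higher of the other LR3 pools by 1.03. The sum of 9 T and NK cell markers did so by 0.48 and that of 6 macrophage markers by 0.61. The part of these markers in the IDO1 signal was not tested.

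KYNU, which cleaves kynurenine and its hydroxylated form, stayed low on every array. At day 3 its signals were 3.05, 2.94 and 1.42 (HR3) and 2.45, 3.00 and 2.72 (LR3), and at day 7 they were 1.84, 1.07 and 0 (HR7) and 3.17, 0 and 3.06 (LR7). The groups overlapped, and no array reached the median. The difference over both groups was -1.07 with a 95% interval from -2.37 to 0.22, and -0.17 with 16 added to the linear signal. Without LR7 replicate 2, a pool at the floor, it was -0.55, and within LR it went from -0.65 to 0.39.

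Of 14 other genes of tryptophan use, 9 have a probe set and 3 were tested. Over both groups 1 rose and none fell in limma, with a median of 0.14 against -0.08 for all tested probe sets. Of all tested probe sets 31.1% rose and 34.8% fell. The gene that rose was QPRT, which makes the NAD precursor from quinolinate, the branch that ACMSD competes with. Its log2 signal was 9.01 ± 0.25 in HR3, 9.30 ± 0.32 in LR3, 9.61 ± 0.04 in HR7 and 9.72 ± 0.19 in LR7 (difference 0.51, standard error 0.13, adjusted p = 0.00496). The difference was 0.60 within HR and 0.42 within LR, and the interaction was 0.18 (standard error 0.26). AADAT, a kynurenine aminotransferase, and WARS1, which loads tryptophan on its transfer RNA, differed by 0.14 and 0.13 (adjusted p = 0.42 and 0.552). A dimmer WARS1 probe set differed by 0.45 (adjusted p = 0.0454). TDO2, the liver enzyme that takes the same step as IDO1, and KMO, which hydroxylates kynurenine, had group means between 0.76 and 3.89 and were not tested.

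**Figure D2:**
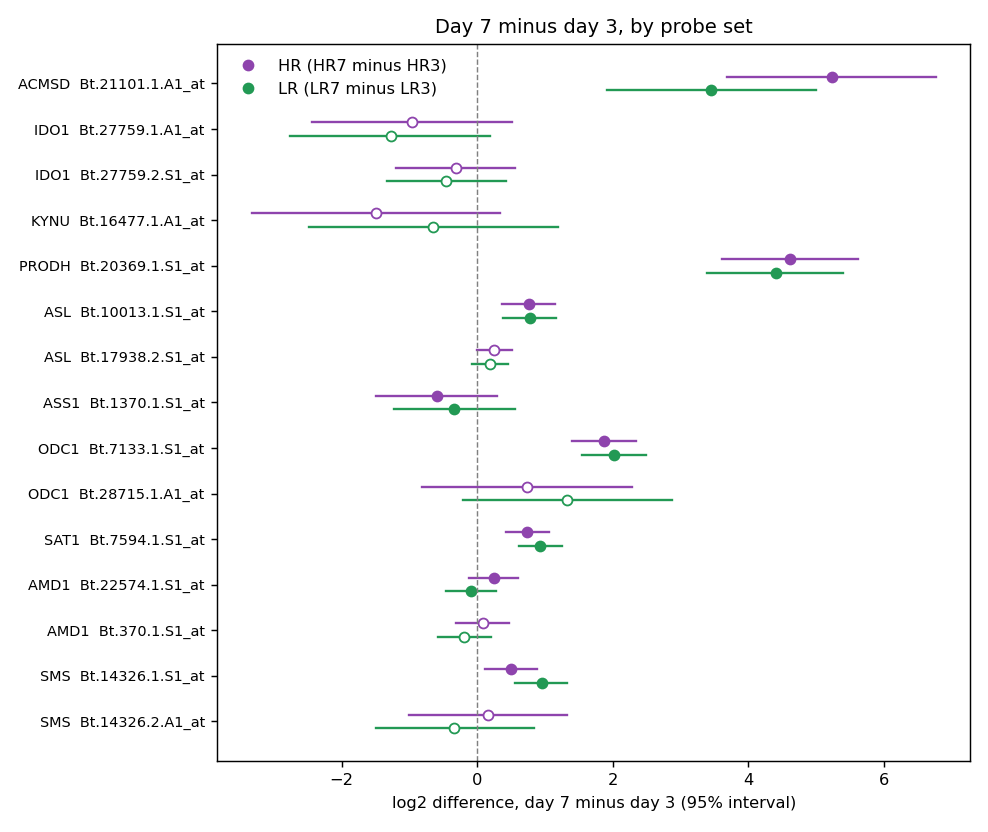
Log2 difference of day 7 minus day 3 (horizontal axis) for each of the 15 probe sets, in HR (purple) and LR (green). Points are estimates and lines 95% intervals from limma, and open points mark probe sets that were not among the 7336 tested. The intervals of HR and LR overlap for every probe set, and those of PRODH and ACMSD lie farthest to the right.

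In arginine synthesis ASL was higher at day 7, and ASS1, the enzyme before it, did not pass. ASS1, which joins citrulline and aspartate, had 8.02, 8.36 and 8.58 in HR3 and 7.98, 8.11 and 8.20 in LR3. At day 7 it had 7.49, 8.43 and 7.25 in HR7 and 8.86, 7.07 and 7.33 in LR7. The days overlapped, since 1 pool of each day 7 group was high and the other 2 lay below all day 3 pools. The difference over both groups was -0.47 (standard error 0.29, adjusted p = 0.164). Without LR7 replicate 1, the highest pool of all, it was -0.75 (adjusted p = 0.00916), and in LR alone it went from -0.34 to -0.90 (adjusted p = 0.0444).

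ASL, which then splits argininosuccinate into arginine and fumarate, had day 3 signals of 7.29, 7.35 and 7.35 (HR3) and of 7.25, 7.64 and 7.41 (LR3). Its day 7 signals were 8.08, 8.24 and 7.95 (HR7) and 8.40, 8.43 and 7.79 (LR7). All day 7 pools were above all day 3 pools. The difference was 0.76 in HR and 0.77 in LR (standard error 0.18 each). A second ASL probe set, with an SD under 0.2, ranged from 6.61 to 7.07, differed by 0.22 over both groups and overlapped between days. The 2 probe sets had a Pearson correlation of 0.655 over the 12 arrays, and the mean of both rose by 0.49.

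Of 18 other genes of arginine, the urea cycle and nitric oxide, 12 have a probe set and 3 were tested (median 0.14, against -0.08 for all tested probe sets). Over both groups 31.1% of all tested probe sets rose and 34.8% fell. Of the 3 genes none rose and 1 fell in limma, namely SLC7A1, a carrier that brings arginine into cells, by 0.57 (standard error 0.14, adjusted p = 0.00456). The difference was -0.63 within LR and -0.52 within HR, and the interaction was 0.11 (standard error 0.29). GATM, which starts creatine synthesis from arginine, and SLC7A7, a carrier that moves arginine across the basolateral membrane, differed by 0.20 and 0.14 (adjusted p = 0.305 and 0.386). The urea cycle genes CPS1 and OTC had group means between 3.60 and 4.26 and were not tested. The brightest probe set of NOS2, the inducible nitric oxide synthase, had 5.62 ± 0.12 in HR3, 5.21 ± 0.60 in LR3, 6.59 ± 0.40 in HR7 and 5.98 ± 0.14 in LR7 and was not tested either. It differed by 0.87 between days over both groups, whereas the dimmer NOS2 probe sets differed by -0.17, 0.28 and -0.98.

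In polyamine metabolism ODC1, SAT1 and SMS were higher at day 7 and AMD1 was not. ODC1, the rate-limiting decarboxylase that makes putrescine, had 10.77, 11.11 and 11.10 in HR3 and 10.75, 11.34 and 10.88 in LR3. At day 7 it had 12.93, 13.03 and 12.63 in HR7 and 13.05, 13.37 and 12.60 in LR7. Its signal, which also depends on the probes, was above that of at least 95.8% of probe sets on day 3 arrays and of at least 99.2% on day 7 arrays. The difference was 1.87 in HR and 2.02 in LR (standard error 0.22 each), and 135 tested probe sets had a larger rise over both groups. A second ODC1 probe set was between 1.70 and 4.82, always below the median, and differed by 1.03 over both groups, with overlapping days.

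SAT1, the acetyltransferase through which spermidine and spermine are broken down and exported, had 12.32, 12.32 and 12.30 in HR3 and 12.12, 12.08 and 12.16 in LR3. It had 13.23, 13.10 and 12.84 in HR7 and 13.09, 13.26 and 12.81 in LR7. Pools agreed closely at day 3 and spread more at day 7, without overlap between days. The difference was 0.74 in HR and 0.93 in LR (standard error 0.15 each). Thus transcripts of a polyamine-making and of a polyamine-degrading enzyme were both higher at day 7.

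SMS, which makes spermine from spermidine, had 9.91, 10.02 and 10.26 in HR3, and 9.85, 9.90 and 9.81 in LR3. The day 7 signals were 10.55, 10.68 and 10.46 (HR7) and 10.72, 11.20 and 10.48 (LR7). The lowest day 7 pool was above the highest day 3 pool in both receptivity groups. The difference was 0.95 in LR (standard error 0.18) and 0.50 in HR (standard error 0.18, adjusted p = 0.0386). The call in HR was lost without the filter on low values (0.0952), in an ordinary linear model (0.0515) and without HR3 replicate 1 (0.116), HR3 replicate 2 (0.0961), HR7 replicate 1 (0.0796), HR7 replicate 2 (0.118) or HR7 replicate 3 (0.0574). A dim second probe set of SMS, between 2.54 and 4.39, did not follow the first (Pearson correlation -0.182 over the 12 arrays).

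AMD1, which supplies the aminopropyl groups for spermidine and spermine, differed little between days. At day 3 it had 8.86, 9.12 and 9.18 (HR3) and 9.66, 9.46 and 9.05 (LR3), and at day 7 it had 9.15, 9.47 and 9.26 (HR7) and 9.33, 9.29 and 9.26 (LR7). The groups overlapped, and the difference over both groups was 0.07 with a 95% interval from -0.18 to 0.33. A second probe set, with an SD just under 0.2, gave -0.05 (-0.33 to 0.22).

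Of 20 other genes of polyamine and methylthioadenosine metabolism, 15 were matched to a probe set, MTAP to one that the platform names PRDX3. Only 3 were tested, as most others varied too little or were too dim. Of all tested probe sets 31.1% rose and 34.8% fell over both groups, and 41.5% passed within HR and 44.7% within LR. Of the 3 genes none passed within HR or LR. Over both groups none rose and 1 fell in limma (median -0.33, against -0.08 for all tested probe sets). It was OAZ2, an antizyme that sends the ODC1 protein to the proteasome, with 9.08 ± 0.24 in HR3, 8.91 ± 0.29 in LR3, 8.65 ± 0.12 in HR7 and 8.65 ± 0.08 in LR7 (difference -0.35, standard error 0.12, adjusted p = 0.0234). The call was lost without the filter on low values (0.0536), without HR3 replicate 2 (0.0621) and without HR7 replicate 2 (0.0572). The methylthioadenosine salvage enzymes MRI1 and APIP differed by -0.33 and -0.07 (adjusted p = 0.0609 and 0.563). MRI1 passed with array weights (0.0249), without LR3 replicate 2 (0.0432) and without LR3 replicate 3 (0.0271). Spermidine synthase SRM and the antizyme OAZ1, both left out of the tests, differed by 0.14 and 0.06.

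**Figure D3:**
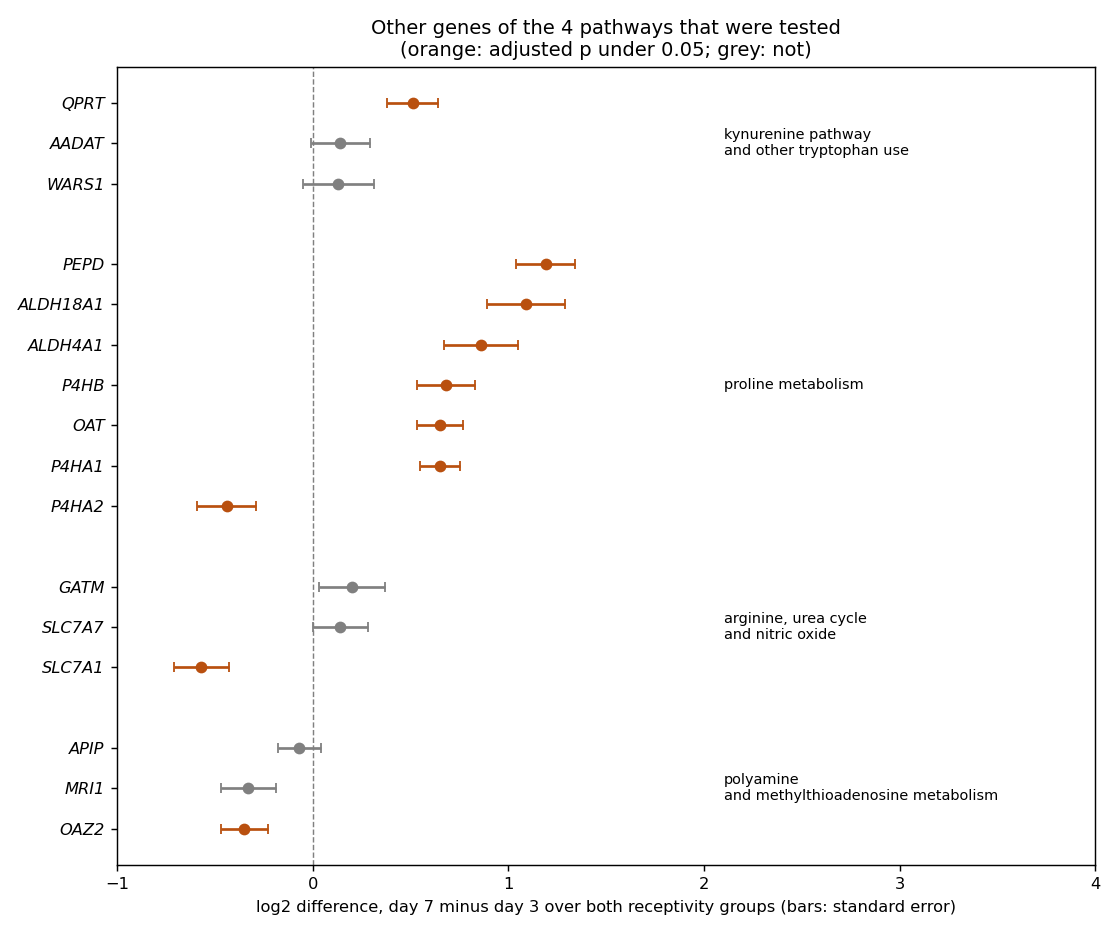
Log2 difference of day 7 minus day 3 over both receptivity groups (horizontal axis) for the 16 tested genes of the 4 pathway lists. Points are estimates and bars standard errors, in orange where the adjusted p was under 0.05 and in grey otherwise. Of the 7 orange points above 0, 6 belong to proline metabolism and 1, QPRT, to tryptophan use. The proline list holds 7 of the tested genes and each other list 3. Of all tested probe sets 31.1% rose and 34.8% fell.

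Among the 6 genes that were higher at day 7, all pairs were positively correlated over the 6 day 7 arrays, whereas at day 3 many pairs were not. PRODH and ODC1 had a Pearson correlation of 0.992 over the 12 arrays, 0.899 over the 6 day 3 arrays and 0.964 over the 6 day 7 arrays. For ASL and ODC1 the values were 0.965, 0.826 and 0.929, and for ACMSD and ODC1 0.932, 0.357 and 0.878. The arrays of a pair share their pools, and the day sets most of the value over all 12. In LR7, all 6 genes had their highest signal in replicate 2 and their lowest in replicate 3, an order found in 28.5% of the 2282 probe sets called higher at day 7. In HR7, PRODH, ASL, ODC1, SMS and ASS1 shared this order, found in 21.2% of them. At day 3, SAT1 had correlations of -0.155 with ODC1, -0.484 with PRODH, -0.525 with ASL and -0.712 with ACMSD. SMS had correlations of 0.386 with ODC1, 0.046 with PRODH, -0.107 with ASL and -0.213 with ACMSD on those arrays.

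**Figure D4:**
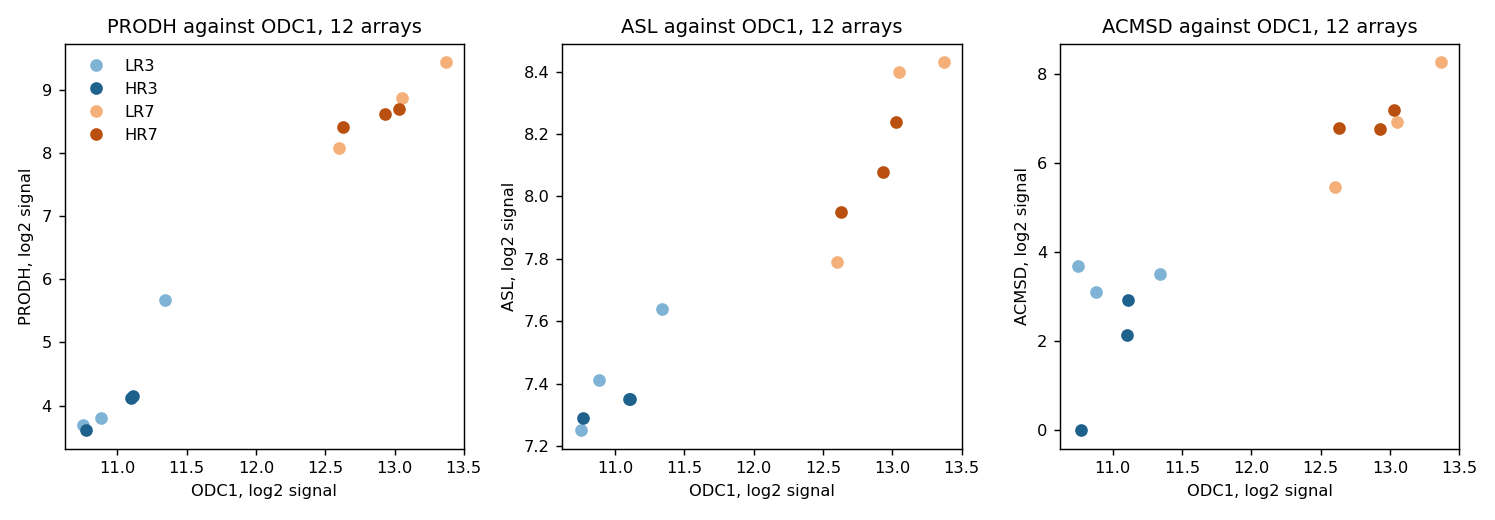
Log2 signal of PRODH, ASL and ACMSD (vertical axes) against that of ODC1 (horizontal axis) on the 12 arrays, coloured by group. In each plot the day 3 and day 7 arrays form separate clouds. Within day 7, arrays with more ODC1 also had more of the other transcript, with correlations of 0.964, 0.929 and 0.878.

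Of all tested genes with a symbol, those closest to PRODH over the 12 arrays were PDZK1, a scaffold of apical transporters (0.995), PHGDH, the first enzyme of serine synthesis (0.994), and ODC1 (0.992). The closest to ODC1 were PHGDH (0.993), PDZK1 (0.993) and PRODH (0.992). ACMSD was closest to SLC27A6 (0.982) and ACSL3 (0.981), which activate fatty acids, and to the adiponectin receptor ADIPOR1 (0.971). SAT1 was closest to FNDC3A (0.984), CLN3 (0.980) and the chaperone DNAJB9 (0.979), ASL to CIAO2B (0.982), ANKIB1 (0.982) and NDFIP2 (0.980), and SMS to MCMBP (0.974), IST1 (0.969) and MCOLN2 (0.969). For the genes that did not rise the values were lower. Since the day sets most of a value over all 12 arrays, this contrast does not measure how closely genes follow each other within a day. The closest gene was MME for ASS1 (0.837), CD48 for AMD1 (0.920), DET1 for IDO1 (0.893) and the copper carrier CP for KYNU (0.814). The next were MFGE8 (0.834) and ADA (0.803) for ASS1, MRPS31 (0.845) and SYNRG (0.820) for AMD1, CAPN5 (0.865) and the immunoglobulin chain IGHM (0.860) for IDO1, and TCF7 (0.807) and LBP (0.795) for KYNU.

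Marker sums and spiked controls were compared between days as well. The linear signals of each marker list were summed and given as log2, so that the brightest markers weigh most. For neutrophils this sum lay between 8.34 and 8.97 at day 3, apart from LR3 replicate 3, which was 1.03 above the highest of these. At day 7 it lay between 11.79 and 13.64. The macrophage markers lay between 9.95 and 10.59 at day 3 and between 10.71 and 11.86 at day 7. The T and NK cell markers lay between 10.25 and 10.82 at day 3 and between 9.36 and 10.32 at day 7, and the simple epithelium markers between 14.81 and 15.01 and between 14.65 and 15.06. The stroma markers lay between 12.54 and 13.94 at day 3 and between 11.91 and 13.88 at day 7. Of the tested markers, 3 of 3 for neutrophils and 2 of 5 for macrophages rose in limma over both groups, and 5 of 6 for T and NK cells and 3 of 9 for stroma fell. Of all tested probe sets 31.1% rose and 34.8% fell, so the counts for macrophages and stroma were near these shares. No marker was at 0 on any array in the probe set that stood for it, whereas another MSR1 probe set averaged 0.0 in LR3. The sum of 3 red blood cell markers lay between 6.72 and 7.12 at day 3 and between 6.79 and 7.0 at day 7. HBB differed by -0.19 between days in the probe set that stood for it. Its other probe sets differed by 4.73, 3.83 and -0.74, and none of them was tested. The spiked dap control, a check of the labelling, had a log2 difference of its 5' and 3' signals between -3.13 and -2.66 in LR3 and between -1.88 and -1.47 in LR7. In HR it overlapped, with -2.74 to -1.32 in HR3 and -2.30 to -1.77 in HR7. The spiked thr control overlapped between days in both, with -4.35 to -3.52 in LR3, -3.85 to -2.37 in LR7, -3.56 to -1.97 in HR3 and -3.06 to -2.86 in HR7. The part of these in the day differences was not tested.

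Between high and low receptive endometria none of the 8 tested genes passed in limma, neither at day 3 (where 0.0% of the tested probe sets passed), nor at day 7 (0.0682%), nor over both days (0.0409%). At an unadjusted p under 0.05 in limma, 1 of the 8, ACMSD, was found at day 3 (7.03% of tested probe sets), 0 at day 7 (4.51%) and 0 over both days (7.02%). An ordinary linear model gave 0 of the 8 after adjustment, against 0.0% of tested probe sets for HR3 and LR3, 0.0545% for HR7 and LR7 and 0.0273% with the days pooled. It also gave 0 of them before adjustment, against 7.44%, 4.29% and 7.24%. The adjusted p values lay between 0.67 and 0.994 at day 3 and between 0.997 and 1.0 at day 7.

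At day 3, ACMSD was lower in all HR3 pools than in any LR3 pool, at levels far under the array median. The difference was -1.75 (95% interval -3.29 to -0.21, adjusted p = 0.67), -0.90 without HR3 replicate 1, which stood at the floor, and -0.42 with 16 added to the linear signal. SAT1 and SMS were higher in all HR3 pools than in any LR3 pool, by 0.19 (-0.12 to 0.51) and 0.21 (-0.17 to 0.59). Over all probe sets, HR3 pools lay wholly above LR3 pools in 5.63% and wholly below in 4.61%. AMD1 differed by -0.34 (-0.70 to 0.03) and overlapped.

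At day 7, none of the 8 tested genes differed between HR7 and LR7 by more than 0.24 in the main fit. The differences were -0.22 for PRODH (-1.22 to 0.79), -0.14 for ODC1 (-0.61 to 0.33), -0.24 for SMS (-0.62 to 0.15), -0.12 for ASL (-0.51 to 0.27), 0.00 for SAT1 (-0.31 to 0.32), 0.03 for ACMSD (-1.51 to 1.57), -0.03 for ASS1 (-0.92 to 0.86) and 0.00 for AMD1 (-0.36 to 0.36). Without LR7 replicate 1 that of ASS1 was 0.52. Alternatives that kept every pool gave lowest values of -0.31 for PRODH, -0.31 for ASS1 and -0.26 for SMS. Among the probe sets that were not tested, the difference was -1.11 for KYNU (-2.94 to 0.73), -0.24 for the brighter IDO1 probe set (-1.71 to 1.24) and -0.43 for the dim ODC1 probe set (-1.98 to 1.11). Of the 15 probe sets only that dim one of ODC1 had groups that did not overlap, lower in HR7, as 3.56% of all probe sets did. The spread between pools was wider in LR7 than in HR7 for PRODH (SD 0.68 and 0.15) and ACMSD (SD 1.41 and 0.23), a difference in spread that was not tested.

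**Figure D5:**
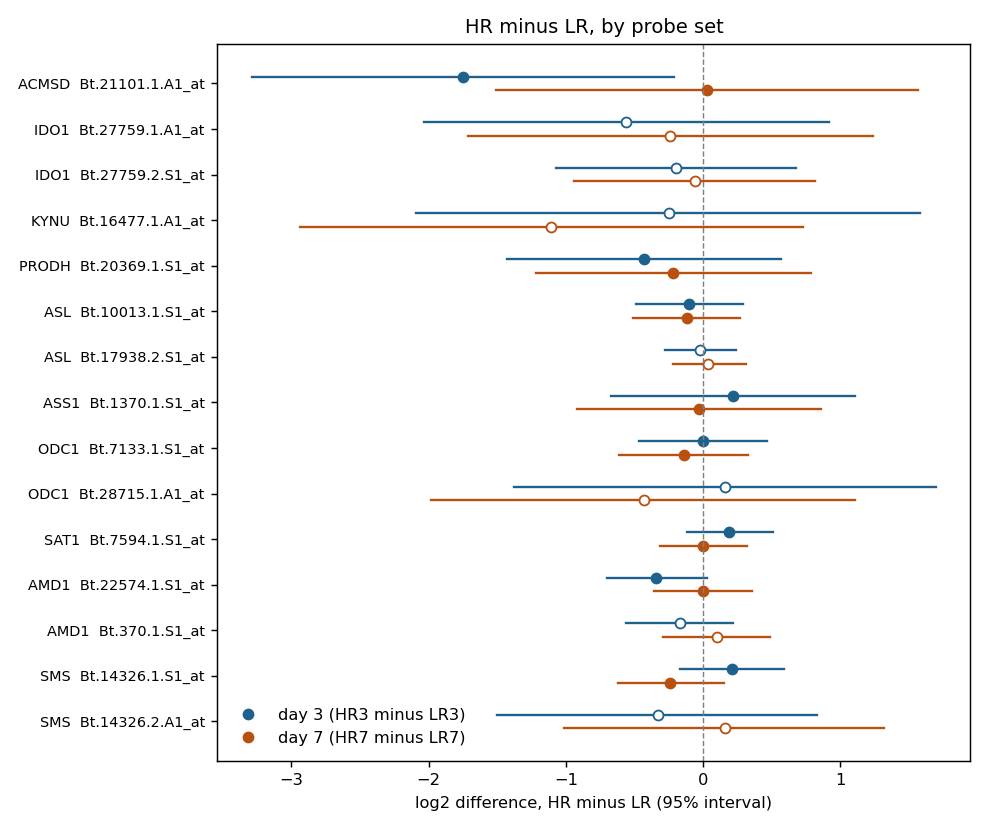
Log2 difference of HR minus LR (horizontal axis) for each of the 15 probe sets at day 3 (blue) and day 7 (orange). Points are estimates and lines 95% intervals from limma, and open points mark probe sets that were not tested. Only the day 3 interval of ACMSD, from -3.29 to -0.21, lies wholly on one side of 0.

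Whether the change with the day differed between HR and LR was examined with the interaction of receptivity and day. None of the 8 genes passed in limma or in an ordinary linear model, and 0.0% of the tested probe sets passed in either. Before adjustment 0 of the 8 had a p under 0.05 in both, against 3.9% and 3.6% of tested probe sets. Of the 16 tested genes of the pathway lists, none passed in the interaction or in any comparison of HR with LR. For ACMSD the interaction was 1.78 (95% interval -0.40 to 3.96), but 0.40 with 16 added to the linear signal, 0.81 with array weights, 0.93 without HR3 replicate 1, which stood at the floor, and 1.06 without LR7 replicate 3. For SMS it was -0.45 (-0.99 to 0.09), and -0.25 without LR7 replicate 2. For PRODH and ODC1 the interaction was 0.21 (-1.21 to 1.63) and -0.15 (-0.81 to 0.52).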

How the data were processed

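The deposited table holds log2 signals that the authors made with PLIER in Expression Console, after GCOS 1.1.1 with global scaling. The study's present calls were not used here. Of 24128 entries, 112 control probe sets were left out. Of the 24016 others, 13292 have 1 gene symbol in the platform annotation, 86 several and 10638 none. Groups came from the sample titles. Arrays shared at most 2.05% of identical values in any pair.

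In limma 3.58.1 (R 4.3.3), all 12 arrays entered a model with a mean for each group. P values were adjusted after Benjamini and Hochberg over the 7336 probe sets of a comparison, with 0.05 as the threshold. Python 3.11.15, pandas 2.3.3 and numpy 2.4.6 served for summaries. Probe sets that were not tested have intervals from the fit without a filter. Where a gene has more than one probe set, that of highest mean stands for it. In the lists, older symbols were matched through entrez identifiers and synonyms in RefSeq. Probe sets with the platform symbols PRDX3 and CXCR1 thus stood for MTAP and for the neutrophil marker CXCR2, and neither was tested.

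Members and lists were chosen with earlier results of these data known. All members were named. From each of the 4 pathway lists the genes with the largest day differences among those that passed were named, up to 3 in each direction, and for each member the 3 genes most correlated with it. Others (OAT, P4HA1, P4HB, PYCR1, PYCR3, PRODH2, AADAT, WARS1, TDO2, KMO, GATM, SLC7A7, CPS1, OTC, NOS2, MRI1, APIP, SRM and OAZ1) were added after their values were seen. Cell type markers were given as levels and as counts of those that passed in limma. Pools of the same number had positive residual correlations between LR3 and LR7 (0.199, 0.211 and 0.463) and between HR7 and LR7 (0.135, 0.148 and 0.445). For the other groups compared they were not all positive. HR7 and LR7 hold different heifers, pools of unlike number were not compared, and the labels do not say what the numbers share. The main model took pools of different days as independent, although the same heifers may have been brushed on both days. P values measure the spread between pools, which may be partly technical. Precision is limited by the array number.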

Additional observations from a re-analysis of the deposited data

How the results depend on the processing

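The number of the 10 genes that passed stayed within 1.5 times its value in every comparison under all alternatives run: other filters, quantile normalization, median centring, 16 added to the linear signal, an intensity trend, array weights, an ordinary linear model, only the compared groups, a replicate block and leaving out each pool. It was 6 in the day comparisons with the replicate block as without it, and 0 in the receptivity comparisons and the interaction. Fitted on LR3 and LR7 alone with the block, an alternative added after seeing the data, it was 6 as well, and the block changed no other call of a member. Single calls that changed were those of SMS in HR and of ASS1, given above. Over all tested probe sets, the day comparison had 3045 calls in HR (1928 without HR7 replicate 2) and 3280 in LR (1960 with only the compared groups, 2155 without LR7 replicate 1). Between HR and LR 0 passed at day 3 (1 without the filter on low values, 2 with array weights, 5 without HR3 replicate 1, 1 without LR3 replicate 3), 5 at day 7 (2 to 9 over the alternatives, and 3 with the replicate block) and 3 over both days (0 to 6). For the interaction it was 0, with 1 or 2 in 4 alternatives. Averaging the probe sets of each gene gave a day difference of 0.49 for ASL, 1.49 for ODC1 and 0.32 for SMS. Counts of the pathway lists moved by 1 or 2 genes in some alternatives, for tryptophan in HR from 1 to 0 and for arginine in LR from 1 to 0 and in HR from 0 to 1, and 3 polyamine genes passed in place of 1 without the minimum SD. Signals far below the array median limit what can be said of KYNU, IDO1 and day 3 ACMSD.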
